A study of Mus musculus with 32 samples.

Results

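The step of the wild-type (WT) mouse brain from stage E12.5 to stage E14.5, the age of the embryo in days, was described from 8 of the 32 libraries of the series. All 4 WT libraries of each stage were taken by their labels, and no library was chosen by a measured value. Each library came from a whole brain of the strain C57BL/6J, genotype Dhcr7+/+, with no treatment given in the labels. The series also holds brains without a working Dhcr7 (KO) and the stages E16.5 and PND0, with 4 libraries per genotype and stage, and models Smith-Lemli-Opitz syndrome. Messenger RNA was enriched by polyA selection and sequenced as paired reads, and the values are read counts per gene symbol. Nothing in the labels says whether a stage's 4 brains came from 1 litter or several, so p-values measure the spread between these libraries.

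Between these ages the mouse forebrain passes through the middle of neurogenesis. Radial glia, the neural stem cells that line the ventricles, divide and give rise to intermediate progenitors and neurons, while the time of glia production is still to come for most regions. New neurons leave the cell cycle, migrate outward, extend axons and begin to make the proteins of the synapse. Blood of this age carries red cells from the yolk sac, with embryonic globins, which are replaced by red cells from the fetal liver.

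Total counts were 15540221 to 27405041 per library at E12.5 and 21896526 to 28318857 at E14.5. A count of 0 allows up to 3 counts, or 0.107 to 0.191 CPM by library, where CPM are read counts scaled to a common library total, for counting error only. The 4 E12.5 libraries differed more from each other than the 4 of E14.5, with a biological coefficient of variation of 19% against 6.84%. On the first principal component, which held 79.5% of the variance, the E12.5 libraries stood at -52.17, -39.95, -16.18 and -30.67 in the order of replicates 1 to 4, and the E14.5 libraries between 32.97 and 35.52. The Y-linked gene Ddx3y was expressed in 1 of 4 libraries at E12.5, replicate 1, and in 3 of 4 at E14.5. The sex of E12.5 replicate 1 and its other differences given below can therefore not be told apart.

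The E12.5 libraries stood apart in 3 ways that touch the results below. First, markers of cartilage, muscle and skin, which lie outside the brain, summed to 1218, 607, 434 and 546 CPM at E12.5 and to 206 to 229 CPM at E14.5, so that replicate 1 held the most. Markers of meninges and fibroblasts ran in the same order, with sums of 4962, 3121, 1972 and 2643 CPM at E12.5 and 943 to 1075 CPM at E14.5. Second, erythroid genes summed to 4866, 3963, 9359 and 2108 CPM at E12.5, highest in replicate 3, and to 1164 to 1532 CPM at E14.5. Also, genes of postmitotic neurons summed to 6881, 8482, 11757 and 10096 CPM at E12.5 and 13958 to 14617 CPM at E14.5, so that replicate 3 was nearest to E14.5 and replicate 1 farthest. In whole tissue, fewer cells of a type and less RNA per cell cannot be told apart. The part of these differences between libraries in the results was not tested. Some values are therefore also given without E12.5 replicates 1 and 3, or against E12.5 replicate 3 alone. The latter fit takes the spread of that single library from E14.5, where the libraries varied less, so that calls it keeps say little and mainly its medians are given.

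**Figure D1:**
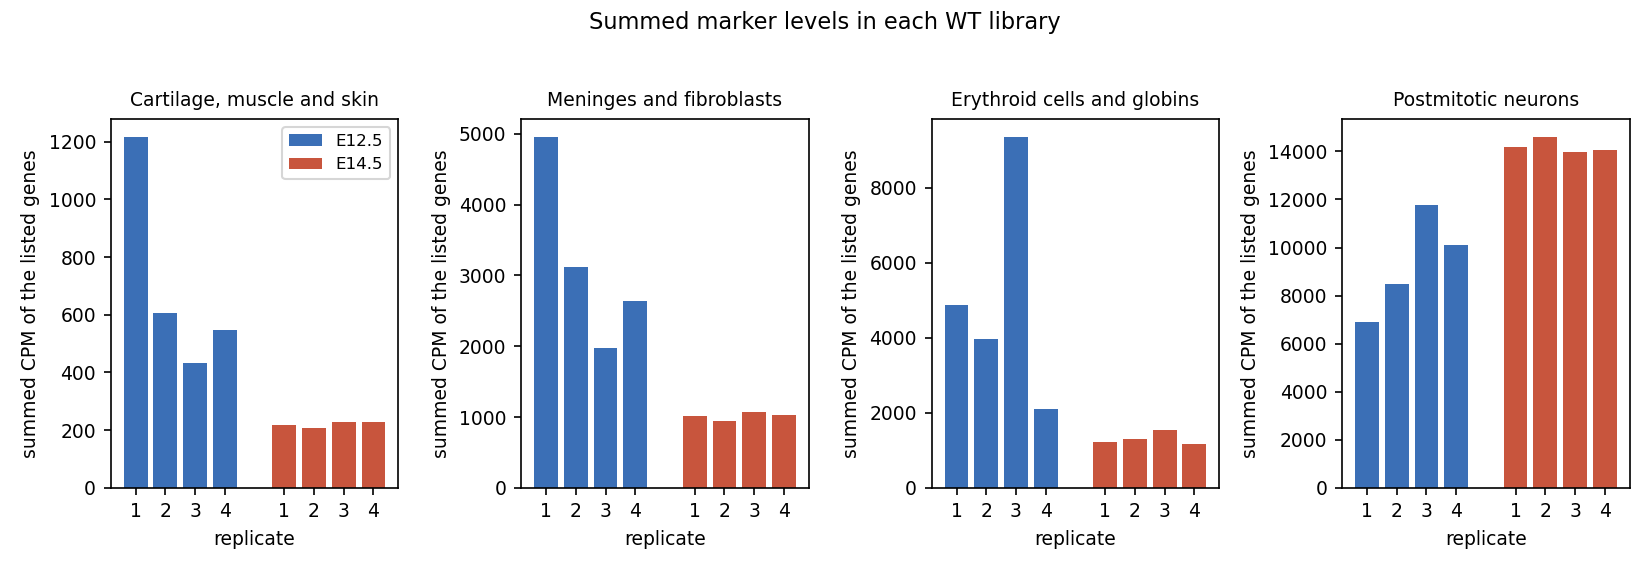
Summed level in CPM of the members of 4 gene lists in each WT library, as 1 bar per library, with replicates 1 to 4 of E12.5 in blue and of E14.5 in red. Markers of cartilage, muscle and skin and of meninges were highest in E12.5 replicate 1, erythroid genes in E12.5 replicate 3, and each neuron sum at E14.5 was above each at E12.5.

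In edgeR's quasi-likelihood test with Benjamini-Hochberg adjustment, 4897 of 17942 tested genes (27.3%) were higher at E14.5 and 5478 (30.5%) were lower, at an adjusted p under 0.05. Each count of list members given below is to be read beside these 2 shares. Unless stated, such counts cover all tested members, also those under 10 CPM. Among the 11284 genes with a mean of 10 CPM or more at either stage, 3433 (30.4%) were higher and 4032 (35.7%) lower. Most of these changes were small: 6451 of the 7465 calls, or 86.4%, were under 2-fold. A change of at least 2-fold was found for 501 genes higher (4.44%) and 513 lower (4.55%). The groups did not overlap in 7125 of the 11284 genes (63.1%), and 6873 of those were called. The median log2 fold change was -0.03 over all tested genes and -0.04 over genes of 10 CPM or more. Without E12.5 replicates 1 and 3 the counts at 10 CPM or more were 3824 higher and 4104 lower. Throughout, fold changes are E14.5 minus E12.5 on a log2 scale, values per library are in the order of replicates 1 to 4, and means are ± SD over 4 libraries. A gene followed only by its log2 fold change in brackets is named to complete a count of 5 or fewer and was chosen after its value was seen. Where such a call did not hold without 1 or more single libraries, these follow the value as libraries it was lost without.

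**Figure D2:**
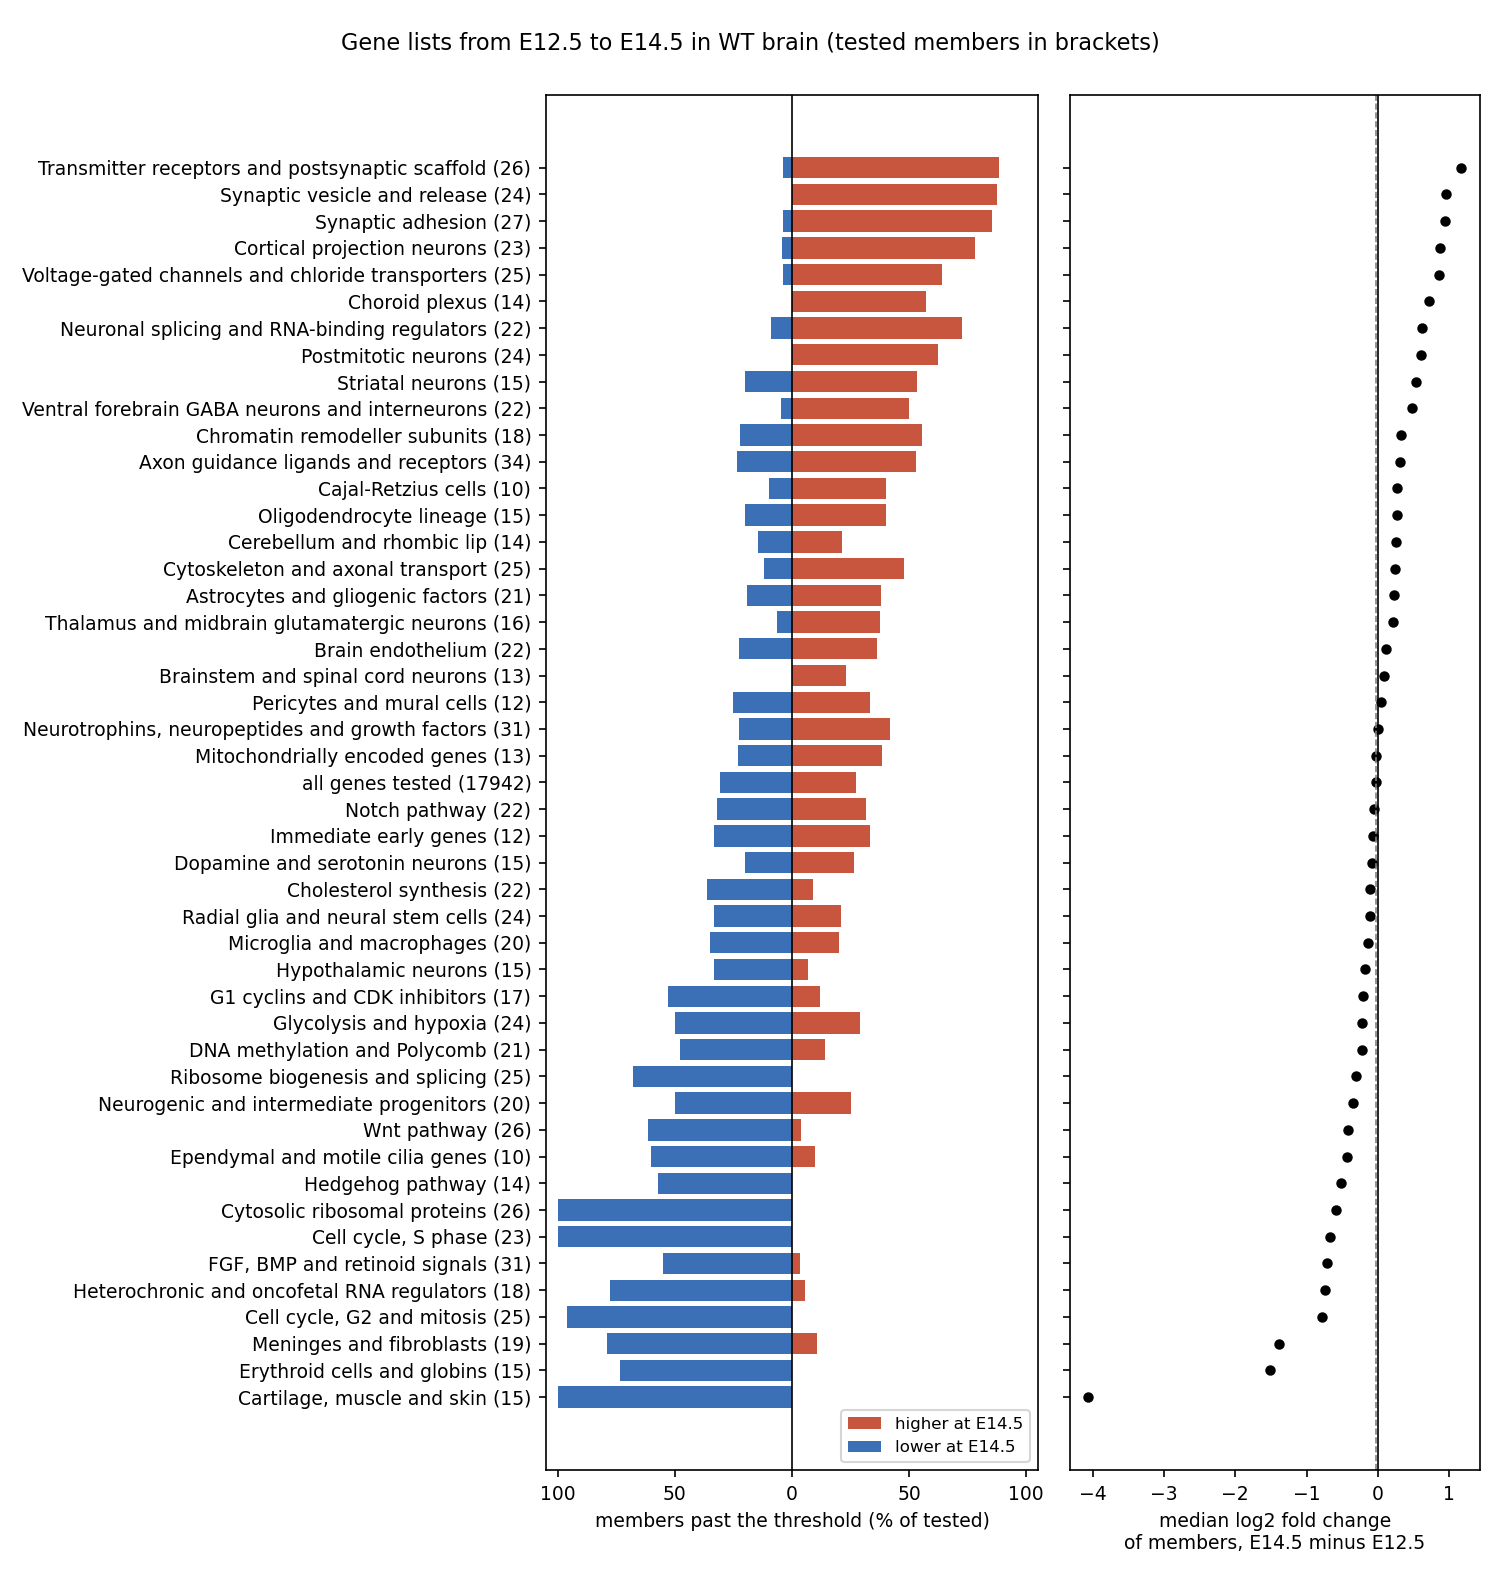
Share of the tested members of 46 gene lists with 10 or more tested members that were higher (red, right) or lower (blue, left) at E14.5, in %, beside the median log2 fold change of the list, E14.5 minus E12.5. Lists of synapses, neurons, channels and choroid plexus lie at the top, and lists of the cell cycle, meninges and red cells at the bottom. All genes tested, with 27.3% higher and 30.5% lower, lie near the middle. The list of cartilage, muscle and skin is also drawn. Several of its members passed the filter on low counts only through E12.5, so its share and median are fixed in part by that filter and are no result.

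Genes of the cell cycle fell together. All 23 tested genes of DNA replication and S phase were lower at E14.5, with a median log2 fold change of -0.67. Of the 25 genes of G2 and mitosis 24 were lower and 0 higher, with a median of -0.79. Mki67 (ENSMUSG00000031004.8, chromosome 7, 135689784 to 135716361, minus strand), the nuclear protein that marks dividing cells, stood at 533, 565, 483 and 493 CPM at E12.5 and 219, 207, 233 and 215 CPM at E14.5 (log2 fold change -1.25 with SE 0.063, adjusted p = 8.82e-07). Its groups did not overlap, and the E14.5 libraries lay close together. Cenpe, a motor protein of the kinetochore, had 121, 132, 116 and 117 CPM and then 40.6, 46.1, 50.3 and 43.4 CPM (log2 fold change -1.43 with SE 0.073, adjusted p = 8.87e-07). Every E12.5 library was above every E14.5 library for Cenpe as well. Cenpf, another kinetochore protein, fell from 176 ± 18.4 to 73.1 ± 5.52 CPM, and Birc5 (survivin) fell from 77.2 ± 10.1 to 36.6 ± 3.90 CPM. Foxm1, a transcription factor that drives mitotic genes, was the exception, at 115, 119, 91.9 and 121 CPM at E12.5 and 111, 96.9, 118 and 109 CPM at E14.5 (log2 fold change -0.039 with SE 0.092, adjusted p = 0.734), with overlapping groups.

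Replication genes were lower as well. Gins2, a subunit of the replicative helicase, fell from 28.0 ± 4.84 to 11.9 ± 0.934 CPM (log2 fold change -1.23 with SE 0.13, adjusted p = 3.40e-05). Mcm5, another helicase subunit, fell from 177 ± 24.3 to 89.0 ± 9.05 CPM, and Pola1, the catalytic subunit of DNA polymerase alpha, from 41.7 ± 2.37 to 22.4 ± 0.257 CPM. Uhrf1, which guides maintenance DNA methylation behind the fork, fell by 0.82 on the log2 scale, and Ccne1, the cyclin of S phase entry, by 1.03. The E14.5 levels of Ccne1 were 11.6, 14.6, 13.0 and 12.3 CPM, all under the 36.6, 26.0, 16.9 and 26.2 CPM of E12.5. Ccne1 was lowest in E12.5 replicate 3, as was Mcm5 at 193, 197, 144 and 173 CPM. Against replicate 3 alone the S phase list had a median of -0.53 and the G2 and mitosis list a median of -0.63.

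The genes that control G1 were less uniform, with 2 higher, Cdk6 (0.51) and Rb1 (0.37), and 9 lower of 17. Ccnd1, the main G1 cyclin of neural progenitors, stood at 226, 228, 182 and 257 CPM at E12.5 and 107, 104, 126 and 117 CPM at E14.5 (log2 fold change -0.98 with SE 0.10, adjusted p = 5.09e-05), with no overlap. Ccnd3 fell from 93.5 ± 31.4 to 46.2 ± 2.76 CPM, and the kinase partner Cdk4 fell from 646 ± 14.6 to 416 ± 27.6 CPM. Cdkn1c, an imprinted inhibitor of CDKs, also fell, from 283 ± 90.9 to 171 ± 3.33 CPM, with replicate 1 highest at E12.5 (413, 238, 206 and 274 CPM). Mycl, a MYC family factor, stood at 151 ± 16.3 CPM at E12.5 and 165.2 ± 5.43 CPM at E14.5 and was not called.

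Because the mitotic genes moved together, their promoters were searched for 3 motifs on both strands. These were CCAAT, the cell cycle homology region (CHR; TTTGAA or TTCGAA, the latter counted once because it is its own reverse complement) and an E2F site (TTCCCGC or TTGGCGC). The window was the 250 bases before the annotated start in RefSeq's GRCm38.p6 table, where 19 of the 25 mitotic genes had an entry. CCAAT was present in 17 of these (89.5%), against 37.5% of all 27025 promoters and 41.2% of the 8827 promoters of genes of 10 CPM or more. At least 2 CCAAT motifs were present in 13 (68.4%), against 11.5% and 15.9%. A CHR was present in 8 (42.1%), against 19.6% and 14.1%. Of the S phase genes with an entry, 8 of 19 (42.1%) held an E2F match, against 6.45% of all promoters and 1103 of 8827 promoters of genes of 10 CPM or more. CCAAT was also frequent in these S phase promoters, in 12 (63.2%), with at least 2 in 7 (36.8%) and a CHR in 3 (15.8%). Of 18 promoters of synaptic vesicle genes, a list that rose, 4 (22.2%) held CCAAT and 5 (27.8%) a CHR. Mitotic promoters held an E2F match in 3 of 19 (15.8%). These are matches of letters and not measured binding. The 3 promoters below, of cyclin B2, of the mitotic kinase gene Cdk1 and of topoisomerase II alpha, were chosen after their values and matches were seen, because each holds both motifs. They run 5′ to 3′ on the strand of the gene, in lower case, with CCAAT (or ATTGG on the other strand) and CHR matches (TTCAAA on the other strand) in capitals.
Ccnb2 promoter, chr9:70421555-70421804, minus strand: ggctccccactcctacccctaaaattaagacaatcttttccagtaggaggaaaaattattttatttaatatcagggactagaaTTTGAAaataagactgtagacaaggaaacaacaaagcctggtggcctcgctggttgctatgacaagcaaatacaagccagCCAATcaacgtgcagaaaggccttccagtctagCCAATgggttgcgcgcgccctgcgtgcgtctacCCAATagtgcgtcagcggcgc
Cdk1 promoter, chr10:69352913-69353162, minus strand: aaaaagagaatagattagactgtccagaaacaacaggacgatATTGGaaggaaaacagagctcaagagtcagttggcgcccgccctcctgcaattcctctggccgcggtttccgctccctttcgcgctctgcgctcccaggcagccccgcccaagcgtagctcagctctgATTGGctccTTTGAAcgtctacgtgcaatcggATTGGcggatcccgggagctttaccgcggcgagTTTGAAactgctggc
Top2a promoter, chr11:99024190-99024439, minus strand: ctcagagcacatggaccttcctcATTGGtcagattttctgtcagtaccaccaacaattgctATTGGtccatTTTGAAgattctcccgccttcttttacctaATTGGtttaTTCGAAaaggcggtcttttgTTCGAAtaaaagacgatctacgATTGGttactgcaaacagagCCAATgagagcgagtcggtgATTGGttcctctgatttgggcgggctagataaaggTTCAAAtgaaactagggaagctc
Ccnb2 holds 3 CCAAT motifs and 1 CHR, Cdk1 holds 3 and 2, and Top2a holds 6 and 4. Ccnb2 fell from 68.3 ± 6.77 to 36.1 ± 4.01 CPM (log2 fold change -0.92 with SE 0.095, adjusted p = 3.23e-05). Cdk1 fell from 97.6 ± 8.33 to 56.0 ± 4.28 CPM (log2 fold change -0.80 with SE 0.075, adjusted p = 1.82e-05), and Top2a from 566 ± 36.8 to 275 ± 9.47 CPM (log2 fold change -1.04 with SE 0.057, adjusted p = 1.24e-06).

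**Figure D3:**
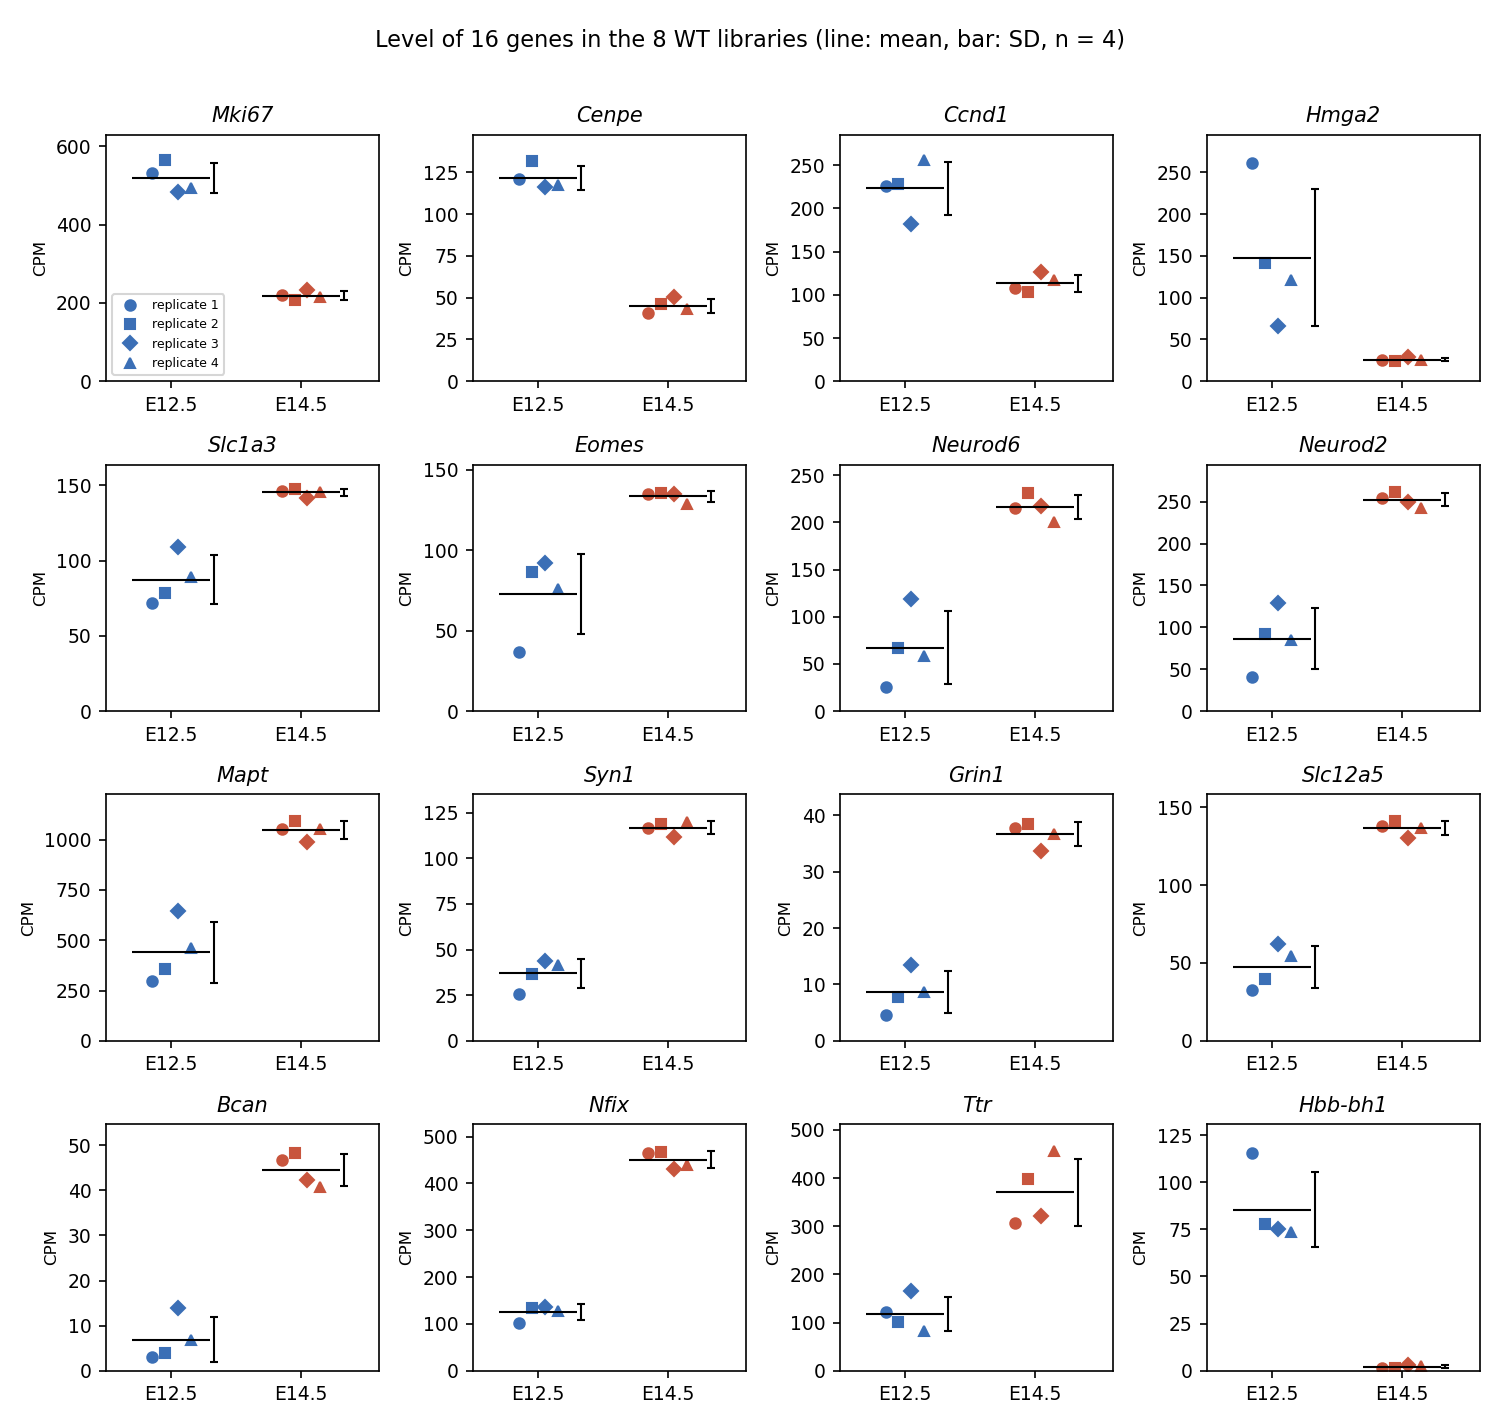
Level in CPM of 16 genes in the 8 WT libraries, with 1 marker shape per replicate number, a line at the mean and a bar of 1 SD (n = 4), E12.5 in blue and E14.5 in red. The cell cycle genes Mki67, Cenpe and Ccnd1 are lower at each E14.5 library, the neuronal genes Mapt, Syn1, Grin1 and Slc12a5 higher, and the embryonic globin Hbb-bh1 falls to near 0.

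Radial glia and neural stem cell genes as a list had shares near those of all tested genes (27.3% higher and 30.5% lower) in the fit of all 8 WT libraries. Of 24 radial glia genes 5 were higher and 8 lower (median -0.11). Beside Slc1a3 and Ddah1 below, the higher members were Notch1 (0.48), Mfge8 (0.35, lost without E12.5 replicate 4 or E14.5 replicate 4) and Ednrb (0.16, lost without E12.5 replicate 1, 2 or 4 or any 1 E14.5 library). The number higher was 3 without E14.5 replicate 4, and the number lower was 14 without E12.5 replicates 1 and 3. In KO brains 3 of the 24 were higher and 14 lower (median -0.32), beside 24.3% and 25% of all genes tested there. Hes5, a Notch effector that holds radial glia undifferentiated, fell from 45.7 ± 9.74 to 26.9 ± 2.79 CPM (log2 fold change -0.77 with SE 0.15, adjusted p = 0.0017). Slc1a3, the glutamate transporter GLAST of radial glia and astrocytes, stood at 72.0, 78.7, 109 and 89.1 CPM at E12.5 and 146, 147, 142 and 145.4 CPM at E14.5 (log2 fold change 0.73 with SE 0.11, adjusted p = 0.000467). Each E14.5 library was above each E12.5 library for Slc1a3, and the E14.5 values lay close together. Ddah1, an enzyme that degrades methylarginines, rose from 87.8 ± 13.9 to 162 ± 2.14 CPM. Msi1, an RNA-binding protein of neural stem cells, stood at 405 ± 77.2 CPM at E12.5 and 442 ± 26.4 CPM at E14.5 and was not called.

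Intermediate progenitor and proneural genes split as well, with 5 higher and 10 lower of 20 (median -0.35). Eomes (Tbr2), the transcription factor of cortical intermediate progenitors, had 36.5, 86.3, 92.3 and 75.6 CPM and then 135, 136, 135 and 129 CPM (log2 fold change 0.88 with SE 0.24, adjusted p = 0.0139). Replicate 1 was far below the other 3 at E12.5, and the groups did not overlap. Neurod1, which acts after Eomes in the same lineage, rose from 39.8 ± 7.14 to 60.8 ± 4.69 CPM. Sox11, a factor of newborn neurons, rose from 1019 ± 138 to 1844 ± 47.1 CPM (log2 fold change 0.86 with SE 0.089, adjusted p = 3.28e-05), one of the 5 largest rises in mean CPM among genes with separate groups. The other higher members were Insm1 (0.51, lost without E12.5 replicate 2 or 3) and Sox4 (0.37). In the other direction Hes6 fell from 166 ± 30.2 to 107 ± 9.73 CPM, Btg2, a marker of neurogenic divisions, from 99.7 ± 20.9 to 62.2 ± 4.17 CPM, and Nhlh1, a factor of neurons just born, from 72.8 ± 14.9 to 41.0 ± 3.44 CPM. Mfap4 fell by 1.19 on the log2 scale and was highest in E12.5 replicate 1, at 154, 92.2, 56.1 and 78.0 CPM.

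Genes of postmitotic neurons rose, 15 of 24 tested with 0 lower and a median of 0.61. Mapt (ENSMUSG00000018411.17, chromosome 11, 104231390 to 104332090, plus strand), the microtubule protein tau, stood at 298, 358, 645 and 460.2 CPM at E12.5 and 1054, 1094, 990.3 and 1054 CPM at E14.5 (log2 fold change 1.25 with SE 0.21, adjusted p = 0.00129). Replicate 3 was the highest E12.5 library and was still below the lowest E14.5 library. L1cam, an adhesion molecule of growing axons, had 121, 169.7, 263 and 192 CPM and then 429, 467, 442 and 429.5 CPM (log2 fold change 1.25 with SE 0.20, adjusted p = 0.000955). Ncam1 rose from 290.3 ± 49.3 to 597 ± 27.4 CPM and Cntn2 (TAG-1), found on the first axons, from 294 ± 40.6 to 641 ± 21.8 CPM. Tubb3, the neuronal tubulin, stood at 1413 ± 319.6 CPM at E12.5 and 1678 ± 17.6 CPM at E14.5 and was not called (log2 fold change 0.25 with SE 0.15, adjusted p = 0.182). Against E12.5 replicate 3 alone the list had a median of 0.32, with 4 members lower.

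Among the lists of neuron classes the cortical projection list had the largest median, with 18 higher and 1 lower of 23 and a median log2 fold change of 0.87. Neurod6, a factor of the pyramidal lineage, stood at 25.6, 67.1, 119 and 58.1 CPM at E12.5 and 216, 232, 217 and 201 CPM at E14.5 (log2 fold change 1.68 with SE 0.38, adjusted p = 0.0054). The E12.5 libraries spread widely and the E14.5 libraries did not, and the groups did not overlap. Neurod2, a related factor, rose from 86.5 ± 36.2 to 252 ± 7.75 CPM. The 1 lower member was Crym, a thyroid hormone binding protein, from 27.0 ± 11.01 to 9.32 ± 0.672 CPM (log2 fold change -1.53 with SE 0.27, adjusted p = 0.00154). Of 10 genes of Cajal-Retzius cells, the early neurons of the cortical surface, 4 were higher and 1 lower, Nhlh2 (-0.42). Calb2 (calretinin) rose from 12.7 ± 4.66 to 21.6 ± 0.532 CPM, Ebf3 from 159 ± 11.7 to 234 ± 4.55 CPM, and Cacna2d2, a calcium channel subunit, from 75.5 ± 17.4 to 161 ± 3.66 CPM. Reln, the signal these cells secrete, had 68.4, 128, 186 and 122 CPM at E12.5 and 198, 215, 186 and 199.9 CPM at E14.5 (log2 fold change 0.66 with SE 0.25, adjusted p = 0.0486), with overlapping groups, and was not called without E12.5 replicate 2 or 4 or any 1 E14.5 library. Against replicate 3 alone 2 of these were higher, and Calb2 was no longer called.

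GABA neurons of the ventral forebrain had 11 genes higher and 1 lower of 22 (median 0.47), with Gsx2 (-0.58) the lower one. That number was 0 without E12.5 replicate 2 or 4 or E14.5 replicate 1, 2 or 4, and 2 without E12.5 replicate 1 or 3. Lhx6, the factor of interneurons from the medial ganglionic eminence, stood at 34.2, 13.7, 32.9 and 30.8 CPM at E12.5 and 67.4, 69.1, 64.8 and 65.0 CPM at E14.5 (log2 fold change 1.25 with SE 0.24, adjusted p = 0.00246). Replicate 2 was lowest at E12.5, and the groups did not overlap. Gad1, a GABA-synthesising enzyme, rose from 60.1 ± 23.4 to 115 ± 10.6 CPM, and the neuropeptide gene Sst from 22.0 ± 6.23 to 40.8 ± 2.56 CPM. Of the 9 striatal genes at 10 CPM or more 3 were higher and 2 lower. Of all 15 tested 8 were higher and 3 lower (median 0.53). Among the lower ones Zfp503, a zinc finger factor of the developing striatum, fell from 69.8 ± 21.9 to 43.4 ± 4.60 CPM. The other lower members were Rarb (-0.99) and Penk (-1.39, lost without E14.5 replicate 1 or 3). Against E12.5 replicate 3 alone these 2 were at -0.33 and -0.17.

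Lists of thalamus, midbrain, cerebellum, monoamine neurons, hypothalamus and brainstem had medians nearer to 0. Thalamic and midbrain glutamatergic genes were 6 higher and 1 lower of 16 (median 0.22), with 3 lower without E12.5 replicate 1, 2 without replicate 3 and 5 without both. Tcf7l2, a factor of thalamic neurons, rose from 198 ± 51.7 to 326 ± 4.41 CPM, and Irx3, an Iroquois homeobox factor and the lower member, fell from 69.4 ± 18.1 to 36.3 ± 3.59 CPM. Cerebellar and rhombic lip genes were 3 higher and 2 lower of 14, with 5 higher without E12.5 replicates 1 and 3. Barhl1, of granule cell precursors, rose from 30.1 ± 8.93 to 53.8 ± 3.78 CPM, as did Zic2 (0.36) and Neurod1. The dorsal factor Pax3 fell from 36.0 ± 11.1 to 18.6 ± 1.53 CPM, and Lmx1a (-0.38) was also lower. Genes of dopamine and serotonin neurons were 4 higher and 3 lower of 15, with a median of -0.085 that was above 0 without E12.5 replicates 1 and 3. Slc18a2, the vesicular monoamine transporter, rose from 28.7 ± 8.01 to 44.4 ± 3.17 CPM, with Slc6a3 (1.80, and 1.09 against E12.5 replicate 3 alone), Tph2 (1.53) and Gata3 (0.37). Gata2 fell from 31.9 ± 9.40 to 18.7 ± 1.39 CPM and was not called against replicate 3 alone, and Foxa2 (-0.57, lost without E12.5 replicate 2 or 3 or E14.5 replicate 1, 2 or 4) and Maob (-2.04) were lower. Hypothalamic genes were 1 higher and 5 lower of 15 (median -0.17); Fezf1, a factor of the early hypothalamus, fell from 24.6 ± 5.29 to 14.4 ± 1.93 CPM, with Sim1 (-0.83), Pomc (-0.75, lost without E12.5 replicate 4 or E14.5 replicate 1, 2 or 4), Six6 (-1.28) and Cartpt (-1.04). The higher member, Sst, is shared with the GABA list, and 2 were higher without E14.5 replicate 4. Of the 3 hypothalamic genes at 10 CPM or more, 1 was higher and 1 lower. Of the 7 dopamine and serotonin genes at that level, 2 were higher and 1 lower.

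Brainstem and spinal cord genes were 3 higher and 0 lower of 13, with 5 higher without E12.5 replicate 1 and 2 lower without E12.5 replicate 2. Of the 13, 1 gene reached 10 CPM, and it was higher. Slc6a9, a glycine transporter, rose from 15.5 ± 2.28 to 21.5 ± 1.79 CPM, though not against replicate 3 alone, and Slc6a2 (1.40) and Slc18a3 (1.42) were the others. Of 21 listed Hox genes, which mark hindbrain and spinal cord, 1 passed the filter on low counts. Their sum was 32.5, 6.29, 0.999 and 4.65 CPM at E12.5 and 1.39 to 4.06 CPM at E14.5, with E12.5 replicate 1 highest and replicate 3 lowest of the 8 libraries.

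The synaptic lists had larger medians than the list of postmitotic neurons. Of 24 genes of the synaptic vesicle and its release 21 were higher and 0 lower, with a median of 0.95. Their summed level was 1495, 1847, 2423 and 2115 CPM at E12.5 and 3239 to 3514 CPM at E14.5. Syn1 (ENSMUSG00000037217.15, chromosome X, 20860511 to 20921004, minus strand), the vesicle protein synapsin I, had 25.7, 36.3, 44.0 and 41.5 CPM at E12.5 and 117, 119, 112 and 119.7 CPM at E14.5 (log2 fold change 1.66 with SE 0.14, adjusted p = 2.57e-05), and the groups lay far apart. Syn2 rose from 16.46 ± 5.67 to 49.5 ± 2.75 CPM. Unc13a, which primes vesicles, rose from 91.9 ± 26.7 to 222 ± 9.92 CPM, and Bsn (bassoon), a scaffold of the active zone, from 89.1 ± 20.3 to 251 ± 6.18 CPM.

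Transmitter receptors and their scaffold were 23 higher and 1 lower of 26, with the largest median of the lists with 10 or more tested members, 1.17. Grin1, the obligate NMDA receptor subunit, stood at 4.56, 7.81, 13.5 and 8.71 CPM at E12.5 and 37.8, 38.6, 33.7 and 36.6 CPM at E14.5 (log2 fold change 2.08 with SE 0.26, adjusted p = 0.00021). Replicate 3 was the highest E12.5 library and lay far below every E14.5 library. Gabra5, a GABA-A receptor subunit, rose from 2.56 ± 0.855 to 11.8 ± 1.31 CPM (log2 fold change 2.20 with SE 0.21, adjusted p = 1.94e-05), and Glra2, the fetal glycine receptor subunit, from 10.02 ± 5.82 to 42.9 ± 3.34 CPM. The 1 lower member was Gabrb2, another GABA-A subunit, with 12.6, 20.4, 30.0 and 19.6 CPM and then 3.43, 5.38, 3.38 and 3.33 CPM (log2 fold change -2.40 with SE 0.28, adjusted p = 0.000109). Gabrb2 is among the genes that alternated from stage to stage in KO brains, described below. Against E12.5 replicate 3 alone the median of the receptor list was 0.68, that of the vesicle list 0.53 and that of the adhesion list 0.51, each smaller and in the same direction.

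Adhesion molecules of the synapse were 23 higher and 1 lower, Ptprd (-0.70), of 27 (median 0.93). Opcml, a GPI-anchored adhesion molecule, rose from 8.48 ± 2.63 to 28.7 ± 2.60 CPM, Cadm2 from 12.1 ± 3.41 to 38.7 ± 5.36 CPM, Cntnap4 from 8.05 ± 2.88 to 20.7 ± 1.37 CPM and Cntnap1, which in mature nerve flanks the node of Ranvier, from 4.56 ± 0.717 to 12.1 ± 2.19 CPM. Voltage-gated channels and chloride transporters were 16 higher and 1 lower of 25 (median 0.85), with 2 lower without E12.5 replicate 1. Kcnc1, a potassium channel of fast-firing neurons, rose from 31.7 ± 10.4 to 96.2 ± 5.77 CPM. The calcium channel genes Cacna1a and Cacna1b rose from 41.9 ± 6.19 to 107 ± 2.85 CPM and from 56.2 ± 13.3 to 141 ± 9.59 CPM. The 2 chloride transporters that set the sign of GABA responses moved apart. Slc12a5 (KCC2), which extrudes chloride, stood at 32.5, 39.8, 62.1 and 54.4 CPM at E12.5 and 138, 141, 130.3 and 137 CPM at E14.5 (log2 fold change 1.53 with SE 0.18, adjusted p = 0.00018). Slc12a2 (NKCC1), which imports it, had 113, 96.0, 82.5 and 85.4 CPM and then 52.6, 54.4, 55.2 and 51.1 CPM (log2 fold change -0.82 with SE 0.092, adjusted p = 5.27e-05), and neither pair of groups overlapped. Slc12a2 also alternated in KO brains.

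Axon guidance genes were 18 higher and 8 lower of 34 (median 0.31). Unc5a, a netrin receptor, stood at 10.3, 13.6, 23.4 and 18.5 CPM at E12.5 and 54.0, 52.0, 49.8 and 53.5 CPM at E14.5 (log2 fold change 1.66 with SE 0.21, adjusted p = 0.000257). Every E14.5 library was more than any E12.5 library by a wide margin. Plxna4, a semaphorin receptor, rose from 89.8 ± 19.2 to 194 ± 10.1 CPM and Slit1, a repellent, from 77.0 ± 17.9 to 166 ± 4.40 CPM. Robo3, which lets commissural axons cross the midline, fell from 132 ± 38.8 to 70.4 ± 7.92 CPM (log2 fold change -0.91 with SE 0.20, adjusted p = 0.00529), though not past the threshold without E12.5 replicates 1 and 3. Of 25 genes of the cytoskeleton and axonal transport 12 were higher and 3 lower, with 7 lower without E12.5 replicate 1. The kinesin Kif1a, which carries vesicle precursors down axons, rose from 378 ± 84.8 to 788 ± 23.9 CPM, and Dync1i1, the neuronal dynein chain, from 4.07 ± 1.04 to 13.2 ± 1.16 CPM. Kif5b, a broadly expressed kinesin, fell from 194 ± 1.76 to 107 ± 1.19 CPM, and Tubb6, a tubulin of many tissues, from 30.0 ± 4.62 to 15.8 ± 1.76 CPM. Also lower was Tuba1b (-0.17, lost without E12.5 replicate 2 or 4 or E14.5 replicate 1 or 4).

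Regulators of splicing were mostly higher. Of 22 splicing and RNA-binding regulators 16 were higher and 2 lower (median 0.62). Rbfox1 rose from 35.7 ± 11.6 to 93.0 ± 5.96 CPM, Celf5 from 148 ± 46.9 to 349 ± 5.96 CPM, and Srrm4, the activator of neuronal microexons, from 104 ± 20.9 to 227 ± 5.43 CPM. Nova2, which directs splicing in cortical neurons, rose from 169.5 ± 33.2 to 443 ± 14.4 CPM. Ptbp1, the repressor of neuronal exons in progenitors, had 345, 281, 213 and 249 CPM at E12.5 and 196, 188, 207 and 198 CPM at E14.5 (log2 fold change -0.46 with SE 0.13, adjusted p = 0.0136), and was not called against E12.5 replicate 3 alone. The other lower member was Mbnl2 (-0.93). Ptbp2, the neural paralog of Ptbp1, stood at 340.4 ± 40.4 CPM at E12.5 and 360.4 ± 13.7 CPM at E14.5 and was not called.

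The BAF chromatin remodelling complex swaps progenitor subunits for neuronal ones as neurons leave the cell cycle. Of the progenitor subunits, Actl6a fell from 104 ± 6.50 to 59.2 ± 3.32 CPM (log2 fold change -0.82 with SE 0.061, adjusted p = 5.22e-06) and Ss18 fell from 98.7 ± 8.60 to 71.5 ± 4.36 CPM (log2 fold change -0.47 with SE 0.07, adjusted p = 0.000327), while Phf10 stood at 71.3 ± 7.17 CPM at E12.5 and 67.9 ± 2.89 CPM at E14.5 and was not called. Of the neuronal subunits, Ss18l1 (CREST) had 52.8, 69.7, 92.8 and 75.7 CPM and then 133, 130.5, 121 and 126 CPM (log2 fold change 0.81 with SE 0.14, adjusted p = 0.00146). Dpf3 rose from 14.6 ± 2.91 to 31.6 ± 1.12 CPM (log2 fold change 1.11 with SE 0.13, adjusted p = 6.18e-05), and Dpf1 stood at 105.4 ± 23.9 CPM at E12.5 and 129.8 ± 4.31 CPM at E14.5 and was not called. Actl6b rose from 76.6 ± 24.9 to 120.2 ± 5.62 CPM (log2 fold change 0.65 with SE 0.21, adjusted p = 0.0259), but without E12.5 replicate 2 it did not pass (adjusted p = 0.0627). Dpf2 fell from 164 ± 8.97 to 145.4 ± 1.94 CPM, and both ATPases rose, Smarca2 from 106 ± 17.8 to 148 ± 6.23 CPM and Smarca4 from 600.0 ± 39.6 to 786 ± 13.2 CPM. Over the 18 remodeller genes 10 were higher and 4 lower, the fourth being Smarce1 (-0.23). Chd5, a neuronal remodeller, had 27.3, 43.3, 93.7 and 59.5 CPM at E12.5 and 201, 219, 199 and 209 CPM at E14.5 (log2 fold change 1.88 with SE 0.32, adjusted p = 0.00119).

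DNA methylation and Polycomb genes were 3 higher, Tet3 (0.21), Bmi1 (0.22) and Cbx7 (0.27, lost without E12.5 replicate 1, 2 or 4 or E14.5 replicate 2, 3 or 4), and 10 lower of 21 (median -0.22). Rest, the repressor of neuronal genes in other cells, stood at 102, 62.6, 43.5 and 51.3 CPM at E12.5 and 23.7, 24.6, 29.7 and 27.0 CPM at E14.5 (log2 fold change -1.30 with SE 0.25, adjusted p = 0.00233). It was highest in E12.5 replicate 1, and its groups did not overlap. Hdac1 fell from 164 ± 12.47 to 102 ± 4.29 CPM and the Polycomb subunit Eed from 55.0 ± 3.49 to 37.3 ± 1.93 CPM, while Hdac2 stood at 353 ± 25.2 CPM at E12.5 and 360.1 ± 8.86 CPM at E14.5 and was not called.

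Heterochronic and oncofetal genes, which are high in early embryonic tissue, fell: 14 of 18 were lower and 1 higher, Dppa5a (1.23) (median -0.75). Against E12.5 replicate 3 alone the median was -0.32, with 10 lower. Hmga2, a chromatin protein of young stem cells, stood at 261, 142, 66.2 and 122 CPM at E12.5 and 25.5, 23.9, 28.7 and 25.1 CPM at E14.5 (log2 fold change -2.52 with SE 0.38, adjusted p = 0.00065). Replicate 3, at the low end of E12.5, was still above every E14.5 library, and against replicate 3 alone the log2 fold change was -1.37. Crabp1, a retinoic acid binding protein, had 135, 86.3, 31.2 and 71.8 CPM and then 10.4, 10.1, 10.2 and 10.04 CPM (log2 fold change -2.99 with SE 0.40, adjusted p = 0.00032). The imprinted growth genes H19 and Igf2 fell from 929 ± 641 to 189 ± 12.2 CPM and from 97.7 ± 73.5 to 27.4 ± 2.55 CPM, with log2 fold changes of -2.30 and -1.83. Both were highest in E12.5 replicate 1, where the markers of cartilage, muscle and skin also had their highest sum, and without it the values were -1.69 and -1.17. Whether the 2 are linked was not tested.

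Signalling pathways of early patterning were mostly lower. Of 31 genes of FGF, BMP and retinoid signals 17 were lower and 1 higher, Fgf13 (1.03), with a median of -0.72, which was -0.27 against E12.5 replicate 3 alone. Those higher numbered 5 without E12.5 replicate 1 and 2 without E14.5 replicate 4. Msx2, a target of BMP in dorsal midline and skull, had 28.7, 18.4, 8.35 and 14.8 CPM at E12.5 and 1.31, 1.10, 1.90 and 1.196 CPM at E14.5. Replicate 3 was the lowest at E12.5 and was still above every E14.5 library. Bmp4 itself fell from 12.6 ± 8.62 to 2.96 ± 0.556 CPM, and Id3, another BMP target, from 99.7 ± 33.9 to 29.3 ± 1.14 CPM (log2 fold change -1.77 with SE 0.23, adjusted p = 0.000287). Crabp2 fell from 82.6 ± 23.8 to 14.4 ± 2.42 CPM. Wnt pathway genes were 16 lower and 1 higher, Wnt7b (0.36), of 26 (median -0.42), with 3 higher without E12.5 replicate 1 and 7 lower with a median of -0.05 against replicate 3 alone. Rspo1, a Wnt agonist of the roof plate, fell from 22.3 ± 4.94 to 7.81 ± 0.346 CPM (log2 fold change -1.52 with SE 0.15, adjusted p = 2.84e-05), and the receptor Fzd10 from 69.1 ± 13.7 to 35.9 ± 3.88 CPM.

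Hedgehog genes were 8 lower and 0 higher of 14 (median -0.52), with 2 higher and a median of -0.24 without E12.5 replicate 1. Against replicate 3 alone 3 were higher and 6 lower, with a median of -0.071. The ligand Shh fell from 14.4 ± 2.05 to 9.05 ± 1.38 CPM. Gli1, the readout of pathway activity, had 71.2, 26.3, 18.0 and 24.6 CPM at E12.5 and 9.52, 9.43, 11.1 and 12 CPM at E14.5 (log2 fold change -1.73 with SE 0.41, adjusted p = 0.00707). Replicate 1 stood far above the others at E12.5, and without it the log2 fold change was -1.12. Gli3, the main repressor of the pathway, fell from 132 ± 16.8 to 86.2 ± 5.605 CPM, and the co-receptor Gas1 from 131 ± 34.2 to 66.2 ± 3.52 CPM. Notch pathway genes were 7 higher and 7 lower of 22, a share near that of all genes, with a median of -0.06 that was 0.11 against E12.5 replicate 3 alone, and 4 were higher without E12.5 replicate 2 or E14.5 replicate 3. The ligand gene Jag2 rose from 54.9 ± 2.31 to 83.0 ± 5.19 CPM and Dtx1 from 56.4 ± 17.6 to 122 ± 6.12 CPM, while Hes5 and Hes6 fell as given above.

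Neurotrophins, neuropeptides and growth factors were 13 higher and 7 lower of 31, with a median of -0.0056 that changed sign under most alternatives. Vgf, a secreted neuropeptide precursor, rose from 3.81 ± 1.27 to 10.96 ± 1.196 CPM, and Tac1, the substance P precursor, from 5.27 ± 0.649 to 10.1 ± 2.27 CPM. Mdk (midkine), a growth factor of embryonic tissue, had 552, 400.1, 252 and 366 CPM at E12.5 and 110.3, 97.4, 113 and 107 CPM at E14.5 (log2 fold change -1.88 with SE 0.21, adjusted p = 0.000131). Igf1 fell by 2.39 on the log2 scale, and without E12.5 replicate 1 by 1.54.

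Glial genes changed in both directions, beside 27.3% higher and 30.5% lower of all tested genes. Astrocyte and gliogenic genes were 8 higher and 4 lower of 21 (median 0.22). Nfix, a nuclear factor I gene of the switch to glia, stood at 101, 135, 137 and 128 CPM at E12.5 and 465, 468, 431 and 439.7 CPM at E14.5 (log2 fold change 1.85 with SE 0.09, adjusted p = 7.83e-07). The groups lay far apart, and replicate 3 was hardly nearer to E14.5 than replicate 2. Bcan (brevican), a proteoglycan of glial cells, had 3.12, 3.81, 13.9 and 6.77 CPM and then 46.8, 48.3, 42.3 and 40.8 CPM (log2 fold change 2.68 with SE 0.39, adjusted p = 0.000563). Aldh1l1, a folate enzyme of astrocytes and radial glia, rose from 11.5 ± 5.28 to 32.4 ± 4.28 CPM, and Aldoc from 37.7 ± 19.02 to 78.2 ± 3.31 CPM. Their log2 fold changes of 1.49 and 1.05 were 0.78 and 0.30 against E12.5 replicate 3 alone. Of the lower members Id3 is shared with the BMP list, and the others were Gja1 (-0.80), Apoe (-0.21, lost without E14.5 replicate 4) and Glul (-0.21). Oligodendrocyte genes were 6 higher and 3 lower of 15. Olig1, of oligodendrocyte precursors and ventral progenitors, rose from 6.28 ± 1.29 to 14.7 ± 1.75 CPM, and Mog, a myelin protein gene, from 5.28 ± 1.45 to 13.3 ± 1.25 CPM. Against E12.5 replicate 3 alone 1 was lower. Pdgfra, of precursors and of mesenchyme, fell by 2.10 on the log2 scale, and by 1.39 without E12.5 replicate 1. Also lower were Sox10 (-2.09, lost without E14.5 replicate 1 or 3) and Cnp (-0.39). Sox10 had 30.7, 6.61, 3.47 and 5.56 CPM at E12.5, highest in replicate 1, and 2.17, 3.06, 1.71 and 3.76 CPM at E14.5. Its log2 fold change was -0.94 without E12.5 replicate 1 and -0.37 against E12.5 replicate 3 alone.

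Vascular genes moved in both directions, as did all tested genes, with 27.3% higher and 30.5% lower. Endothelial genes were 8 higher and 5 lower of 22 (median 0.11). Slco1c1, the thyroid hormone transporter of the blood-brain barrier, rose from 3.78 ± 0.879 to 11.9 ± 1.36 CPM (log2 fold change 1.66 with SE 0.17, adjusted p = 3.10e-05). Plvap, which marks leaky vessels, had 23.5, 20.1, 11.5 and 19.3 CPM at E12.5 and 9.25, 7.69, 9.48 and 10.2 CPM at E14.5 (log2 fold change -1.02 with SE 0.20, adjusted p = 0.00166), but was not called against replicate 3 alone, the lowest at E12.5. Emcn, a sialoglycoprotein of endothelium, fell from 11.4 ± 2.63 to 5.72 ± 0.398 CPM, and Adgrl4, an adhesion receptor, rose from 6.33 ± 0.41 to 11.04 ± 0.776 CPM. The other lower members were Pecam1 (-0.32), Slc2a1 (-0.34) and Egfl7 (-0.38), and 1 was lower against replicate 3 alone. Pericyte and mural genes were 4 higher and 3 lower of 12, with 2 higher without E12.5 replicate 4 or without E14.5 replicate 2, 3 or 4. Rgs5, of pericytes, had 20.2, 28.8, 40.6 and 28.8 CPM and then 61.5, 74.5, 61.9 and 74.2 CPM (log2 fold change 1.2 with SE 0.19, adjusted p = 0.00071). Acta2, smooth muscle actin, fell from 45.0 ± 17.6 to 4.89 ± 0.611 CPM (log2 fold change -3.20 with SE 0.31, adjusted p = 6.11e-05). Higd1b, at 0, 0, 0.118 and 0.11 CPM at E12.5 and 0.496, 0.676, 0.463 and 1.196 CPM at E14.5, Abcc9 (0.35, lost without E12.5 replicate 4 or E14.5 replicate 2, 3 or 4) and Vtn (0.36, lost without E12.5 replicate 2 or 4 or any 1 E14.5 library) were the other higher members and Mcam (-0.34) and Foxc1 (-0.89) the other lower ones. Higd1b passed the filter on low counts only through E14.5, so its call is fixed in part by that filter and is no result. Of the 8 pericyte and mural genes at 10 CPM or more, 3 were higher and 3 lower.

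Microglia and macrophage genes were 4 higher and 7 lower of 20, with 4 lower without E12.5 replicate 2 and 3 without E14.5 replicate 2. At 10 CPM or more, 3 were higher and 1 lower of 6. Csf1r, the receptor that microglia depend on, stood at 20.9, 20.6, 22.3 and 20.8 CPM at E12.5 and 23.5, 27.3, 24.6 and 24.6 CPM at E14.5 (log2 fold change 0.24 with SE 0.071, adjusted p = 0.0142), a small rise with no overlap. Laptm5, a lysosomal membrane protein, rose from 13.0 ± 1.84 to 19.1 ± 1.93 CPM, and P2ry12 (1.05) was also higher. Tmem119, a microglial gene that bone-forming cells also express, fell by 2.90 on the log2 scale, and by 2.30 without E12.5 replicate 1, where it was highest (42.8, 19.9, 6.47 and 15.6 CPM).

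The choroid plexus list had 8 genes higher and 0 lower of 14 (median 0.71), and 3 higher and 0 lower of the 6 at 10 CPM or more. Ttr (transthyretin), its main secreted product, had 121, 101, 165.4 and 82.7 CPM at E12.5 and 307, 399, 321 and 455 CPM at E14.5 (log2 fold change 1.66 with SE 0.22, adjusted p = 0.000342). E12.5 replicate 3 was highest of its stage, and against it alone neither Ttr nor the potassium channel subunit Kcne2, which rose from 5.01 ± 0.975 to 12.46 ± 3.63 CPM, was called. That comparison left 2 members higher, and 1 was lower without E12.5 replicate 1. Ependymal and motile cilia genes were 6 lower and 1 higher, Ak7 (0.75, lost without E12.5 replicate 2 or E14.5 replicate 3 or 4), of 10 (median -0.44), with 3 lower without E12.5 replicate 2 and 1 against replicate 3 alone. Foxj1, the master factor of motile cilia, fell from 30.8 ± 3.34 to 25.5 ± 2.40 CPM (log2 fold change -0.27 with SE 0.096, adjusted p = 0.0329), with overlapping groups, and its adjusted p was 0.06 to 0.101 without E12.5 replicate 2 or 4 or E14.5 replicate 1, 2 or 3. Foxj1 was the 1 gene of the motile cilia list at 10 CPM or more. In the list of retina, lens and pituitary 4 genes were tested, and the 1 higher and the 1 lower were Rlbp1, from 15.997 ± 6.76 to 33.1 ± 3.14 CPM, and Pitx1, from 19.2 ± 20.9 to 1.03 ± 0.383 CPM. Without E12.5 replicate 2 or 4, 2 of these were lower.

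Meninges and fibroblast genes had 15 lower and 2 higher of 19, with a median of -1.39. The higher ones were Slc6a13 (1.34) and Slc22a6 (1.21). Twist1, a factor of mesenchyme, stood at 193, 81.5, 22.6 and 54.5 CPM at E12.5 and 5.95, 3.81, 5.04 and 3.54 CPM at E14.5. Replicate 1 held the most and replicate 3 the least at E12.5, and all were above E14.5. Its log2 fold change was -4.26, and -3.52 without replicate 1. Prrx1 had 304, 116, 48.3 and 76.6 CPM and then 14.8, 16.6, 18.2 and 17.1 CPM, in the same order, and Foxc1, a factor of meninges, fell from 39.1 ± 11.03 to 21.0 ± 2.47 CPM, though not against replicate 3 alone. Against replicate 3 alone the median of the list was -0.76, and without replicates 1 and 3 it was -1.19.

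Of 18 genes of cartilage, muscle and skin 15 passed the filter on low counts, several only through E12.5, where they were high. A count of calls or a median over them is fixed in part by that filter, so their levels per library are given instead. Krt5, a keratin of skin, had 67.9, 34.7, 0.823 and 30.4 CPM at E12.5 and 0, 0, 0 and 0.171 CPM at E14.5, which is 0 counts in 3 of the 4 E14.5 libraries. Krt15, its neighbour in the epidermis, had 30.3, 14.2, 0.764 and 10.8 CPM and then 0.0451, 0.0356, 0 and 0.0854 CPM. Myh3, embryonic muscle myosin, stood at 65.2, 18.3, 9.70 and 7.40 CPM at E12.5 and 0.812, 0.463, 0.787 and 0.854 CPM at E14.5, and Actc1, cardiac actin, which embryonic muscle also makes, at 57.0, 16.8, 5.94 and 4.10 CPM at E12.5 against at most 9 counts per library at E14.5. All 4 were among the 15 largest falls, with the factors Barx1, Osr2, Pax1, Alx1 and Six2 of head mesenchyme. Barx1, a factor of the jaw, had 44.3, 8.51, 0.705 and 3.99 CPM at E12.5 and Osr2, of the palate, 33.1, 15.2, 0.647 and 6.55 CPM, and each was at 5 counts or fewer in each E14.5 library. Alx1 (44.1, 24.7, 0.823 and 14.97 CPM) was not called against replicate 3 alone. Six2, of head mesenchyme, had 147, 83.0, 17.2 and 58.1 CPM at E12.5 and 3.83, 1.85, 2.68 and 2.60 CPM at E14.5 (log2 fold change -4.81 with SE 0.67, adjusted p = 0.00052). Within E12.5 all of these genes were highest in replicate 1. With so few counts at E14.5 a fitted fold change of the others is no measure of size.

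Embryonic globins and other genes of red cells fell. Erythroid genes were lower in 11 of 15 tested and higher in 0 (median -1.51), with 1 higher without E12.5 replicate 3. At 10 CPM or more, 6 of 10 were lower. The globin genes lie in 2 clusters. Hbb-y (ENSMUSG00000052187.4, chromosome 7, 103851749 to 103853216, minus strand) and Hbb-bh1 (ENSMUSG00000052217.6, chromosome 7, 103841637 to 103843164, minus strand) are embryonic beta-like genes, and Hbb-bs and Hbb-bt are adult ones. Hba-x (ENSMUSG00000055609.8, chromosome 11, 32276400 to 32278116, plus strand) is the embryonic alpha-like gene, and Hba-a1 (ENSMUSG00000069919.7, chromosome 11, 32283511 to 32284465, plus strand) and Hba-a2 are adult ones. The adult copies are nearly identical within each pair, so that the counting could split their reads between them.

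Hbb-bh1 stood at 115, 77.7, 74.9 and 73.8 CPM at E12.5 and 1.58, 1.602, 3.10 and 2.48 CPM at E14.5 (log2 fold change -5.30 with SE 0.25, adjusted p = 2.17e-06), and the E14.5 libraries lay far below every E12.5 library. Hbb-y had 2950.0, 2377, 4839 and 1158 CPM and then 293, 308, 447 and 331 CPM (log2 fold change -3.04 with SE 0.41, adjusted p = 0.000364). Replicate 3 was highest and replicate 4 lowest at E12.5, as for the erythroid list as a whole. Hba-x fell from 437 ± 147 to 46.6 ± 11.7 CPM (log2 fold change -3.23 with SE 0.28, adjusted p = 3.69e-05), and Slc4a1, the anion exchanger of the red cell membrane, from 72.8 ± 27.3 to 8.98 ± 2.17 CPM. Of the adult genes Hba-a2 was lower and the other 3 were not called. Hbb-bs had 105.4, 124, 814 and 46.6 CPM at E12.5 and 323, 372, 368 and 266 CPM at E14.5 (log2 fold change 0.29 with SE 0.87, adjusted p = 0.799), and Hba-a1 684, 557, 1756 and 265 CPM and then 396, 419.9, 456 and 384 CPM (log2 fold change -0.98 with SE 0.50, adjusted p = 0.128). For both, E12.5 replicate 3 lay above all E14.5 libraries and replicate 4 below them. Hba-a2 fell by 2.66 on the log2 scale, and by 1.84 without E12.5 replicate 3. Hbb-bt had 117, 117, 514 and 66.1 CPM at E12.5 and 68.9, 76.7, 82.1 and 57.4 CPM at E14.5 (log2 fold change -1.51 with SE 0.64, adjusted p = 0.0775).

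The promoters of 4 globin genes are shown, an embryonic and an adult gene of each cluster, because these genes are used by red cells of different ages. They are the 250 bases before the start in the same RefSeq table, on the strand of the gene, with CCAAT and CACCC in capitals. The gene coordinates given above come from another annotation, GENCODE, whose starts differ. The windows of Hbb-y, Hba-x and Hba-a1 therefore partly overlap the gene spans given above. Both were searched on both strands, and CACCC was present in 54.5% of all promoters.
Hbb-y promoter, chr7:103853208-103853457, minus strand: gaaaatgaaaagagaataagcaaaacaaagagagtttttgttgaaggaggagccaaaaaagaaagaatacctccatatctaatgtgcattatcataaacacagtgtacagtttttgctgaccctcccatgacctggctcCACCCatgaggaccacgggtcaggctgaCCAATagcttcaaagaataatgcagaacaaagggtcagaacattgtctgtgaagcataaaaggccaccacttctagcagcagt
Hbb-bs promoter, chr7:103827929-103828178, minus strand: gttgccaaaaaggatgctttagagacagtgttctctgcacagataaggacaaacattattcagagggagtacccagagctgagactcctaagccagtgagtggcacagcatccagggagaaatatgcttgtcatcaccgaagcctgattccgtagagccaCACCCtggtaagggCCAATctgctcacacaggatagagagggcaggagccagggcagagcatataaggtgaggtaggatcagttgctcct
Hba-x promoter, chr11:32276350-32276599, plus strand: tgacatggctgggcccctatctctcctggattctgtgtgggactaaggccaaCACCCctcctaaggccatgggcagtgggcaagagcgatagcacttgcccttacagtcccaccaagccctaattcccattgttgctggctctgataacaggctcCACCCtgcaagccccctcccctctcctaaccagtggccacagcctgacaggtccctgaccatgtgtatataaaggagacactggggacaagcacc
Hba-a1 promoter, chr11:32283422-32283671, plus strand: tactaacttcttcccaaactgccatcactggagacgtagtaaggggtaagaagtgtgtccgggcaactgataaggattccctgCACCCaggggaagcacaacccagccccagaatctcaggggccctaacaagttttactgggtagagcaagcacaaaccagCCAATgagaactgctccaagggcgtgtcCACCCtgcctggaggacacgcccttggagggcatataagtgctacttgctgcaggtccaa
Hbb-y and Hbb-bs each held 1 CCAAT and 1 CACCC, Hba-a1 held 1 and 2, and Hba-x held 2 CACCC and 0 CCAAT. The window of Hbb-bt, the other adult beta gene, held 3 of each.

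Metabolic and biosynthetic genes shifted too. Glycolysis and hypoxia genes were 7 higher and 12 lower of 24 (median -0.22), and 7 were lower against E12.5 replicate 3 alone. Pkm, pyruvate kinase, had 1276, 1416, 1239 and 1496 CPM at E12.5 and 819.6, 754, 849 and 829 CPM at E14.5 (log2 fold change -0.74 with SE 0.07, adjusted p = 1.95e-05), one of the 5 largest falls in mean CPM among genes with separate groups. Hk2 fell from 39.4 ± 9.48 to 21.3 ± 2.06 CPM, though not against replicate 3 alone. The enolase of neurons, Eno2, rose from 20.5 ± 3.83 to 41.3 ± 1.96 CPM and the phosphofructokinase Pfkp from 96.6 ± 29.1 to 181 ± 11.1 CPM. Cholesterol synthesis genes were 2 higher and 8 lower of 22 (median -0.11), with 1 higher without E12.5 replicate 2 or any 1 E14.5 library. Acat2, at the head of the pathway, fell from 180.2 ± 11.997 to 144 ± 5.65 CPM, and Tm7sf2 rose from 35.3 ± 3.77 to 44.8 ± 2.86 CPM, as did Hmgcs1 (0.20). Dhcr7, the gene that the KO brains lack, had 66.9, 71.9, 65.0 and 72.5 CPM at E12.5 and 70.5, 71.4, 69.6 and 70.5 CPM at E14.5 (log2 fold change 0.029 with SE 0.051, adjusted p = 0.647).

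All 26 ribosomal protein genes in the list were lower (median -0.59), of which 15 alternated between stages in KO brains. Their sum was 17462, 16917, 15571 and 16282 CPM at E12.5 and 10462 to 11406 CPM at E14.5. Ribosome biogenesis genes were 17 lower and 0 higher of 25. Npm1 (nucleophosmin) fell from 609.5 ± 62.7 to 397 ± 24.8 CPM, Nop58 from 153 ± 7.88 to 101 ± 2.57 CPM and Fbl (fibrillarin) from 141 ± 8.21 to 76.0 ± 3.33 CPM. Mitochondrially encoded genes were 5 higher and 3 lower of 13, and 6 of them alternated, among them all 5 higher ones. The higher ones were mt-Co1 (0.63), mt-Nd4 (1.14), mt-Nd1 (0.43), mt-Nd3 (1.28) and mt-Cytb (0.45), and the lower ones mt-Co3 (-0.60), mt-Atp6 (-0.90) and mt-Atp8, at 1.19, 1.72, 0.647 and 1.61 CPM at E12.5 and 0.0902, 0.214, 0.0463 and 0.171 CPM at E14.5. Because mt-Atp8 passed the filter on low counts only through E12.5, its call is no result. Of the 10 mitochondrially encoded genes at 10 CPM or more, 4 were higher and 2 lower. Immediate early genes were 4 higher and 4 lower of 12, near the shares of all tested genes (27.3% and 30.5%). Of the 5 at 10 CPM or more, 1 was higher and 2 lower. Nr4a1 rose from 8.45 ± 2.21 to 12.4 ± 0.917 CPM, with Egr3 (0.80), Arc (0.57, lost without E12.5 replicate 1, 2 or 3 or E14.5 replicate 2, 3 or 4) and Npas4 (2.04). Ier2 fell from 26.0 ± 4.13 to 18.6 ± 0.662 CPM, with Btg2, Junb (-0.43, lost without E12.5 replicate 1 or E14.5 replicate 2 or 3) and Atf3 (-1.02). Against E12.5 replicate 3 alone 2 were higher and 1 lower. A ribosomal RNA gene, CT010467.1, had 3298, 2636, 3756 and 3769 CPM at E12.5 and 11877, 10459, 11082 and 11595 CPM at E14.5 (log2 fold change 1.74 with SE 0.11, adjusted p = 2.78e-06), the largest rise in mean CPM. Its share of the counts was 0.267 to 0.376% at E12.5 and 1.04 to 1.17% at E14.5. The part of this rise in the other values was not tested. On the scale of all 32 libraries, WT replicates 1 to 4 of stage E16.5 held 37930, 5983, 3401 and 4665 CPM of CT010467.1. All but replicate 1 thus lay below every WT library of E14.5. Newborn (PND0) WT brains held 19270 to 29110 CPM. KO levels ranged, in order of age, over 1909 to 60400, 8589 to 26940, 3778 to 5116 and 12250 to 22370 CPM. The gene did not meet the rule for alternating genes. What part of its rise goes with age was not tested.

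Among the 15 largest rises of genes of 10 CPM or more with separate groups were several neuronal genes outside the lists. Abcc8, the sulfonylurea receptor of potassium channels, had 2.81, 3.68, 6.11 and 3.73 CPM at E12.5 and 28.4, 31.5, 23.1 and 28.1 CPM at E14.5 (log2 fold change 2.77 with SE 0.21, adjusted p = 7.20e-06). Nos1, neuronal nitric oxide synthase, rose from 5.82 ± 2.05 to 32.02 ± 3.33 CPM, Sla from 2.72 ± 1.085 to 14.8 ± 3.26 CPM, the calcium sensors Caln1 from 3.82 ± 0.974 to 19.3 ± 4.03 CPM and Hpcal4 from 4.33 ± 2.59 to 20.1 ± 2.67 CPM, and Sptbn4, the spectrin of the axon initial segment, from 16.4 ± 6.23 to 72.4 ± 3.37 CPM. Bend6 rose from 4.86 ± 1.92 to 21.6 ± 2.62 CPM and Kndc1 from 14.8 ± 7.24 to 65.2 ± 3.39 CPM. The predicted gene 2810459M11Rik had 0.749, 1.59, 3.82 and 0.769 CPM at E12.5 and 14.2, 13.6, 11.9 and 11.1 CPM at E14.5 (log2 fold change 2.91), with replicate 3 highest at E12.5, and without it the log2 fold change was 3.67. Ptgds, prostaglandin D synthase, a product of meninges and choroid plexus, stood at 0.687, 0.889, 8.64 and 1.06 CPM at E12.5 and 15.7, 16.4, 12.8 and 11.2 CPM at E14.5, and its call was lost without E12.5 replicate 1 (log2 fold change 2.06, adjusted p = 0.0695, against 2.34 and 0.0219 with it). Replicate 3 was far above the others at E12.5, and without it the log2 fold change was 3.96 (adjusted p = 4.61e-07).

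Some genes alternated from stage to stage. Across the 4 stages, their level in KO brains fell from E12.5 to E14.5, rose to E16.5 and fell to birth, or the reverse, with each step past the threshold. This was so for 2091 of 16486 genes tested in the 3 KO steps (12.7%), with 1279 low and 812 high at E14.5 and PND0. The definition used no WT library, but it requires a KO call at the same step from E12.5 to E14.5. Most genes called in WT were also called in that KO step, as given below, so the rule itself raises their shares. Of the WT calls at 10 CPM or more, 626 of those higher (18.2%) and 894 of those lower (22.2%) were among these genes, and of the falls of 2-fold or more 150 of 513 (29.2%). Of the rises of 2-fold or more 58 of 501 (11.6%) were. Because of that rule the 12.7% of all tested genes is no base for the shares among WT calls. Pseudogenes made up 17.7% of the genes that were low at E14.5 and PND0, against 4.41% of all genes tested in KO.

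Gm38394, a predicted gene among the 15 largest WT falls, had means of 86.0, 1.45, 48.0 and 1.17 CPM in WT brains of the 4 stages in order of age, on the scale of all 32 libraries. Gm3362, a processed pseudogene and the largest rise, had 1.63, 18.3, 2.17 and 12.3 CPM at the same stages. Gm10443 and the ribosomal protein gene Rpl31, chosen after their values were seen, had 69.2, 4.62, 59.6 and 3.27 CPM and 490, 247, 465 and 200 CPM. Each stage was deposited in a table of its own, so that a stage and the preparation or counting of its table cannot be told apart. Of the genes given above with their levels, Bsn, Cacna2d2, Cntn2, Ddah1, Fbl, Gabrb2, H19, Kif5b, Laptm5, Nova2, Slc12a2, Slit1 and mt-Atp8 alternated. Without the alternating genes, 2807 were higher and 3138 lower at 10 CPM or more.

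**Figure D4:**
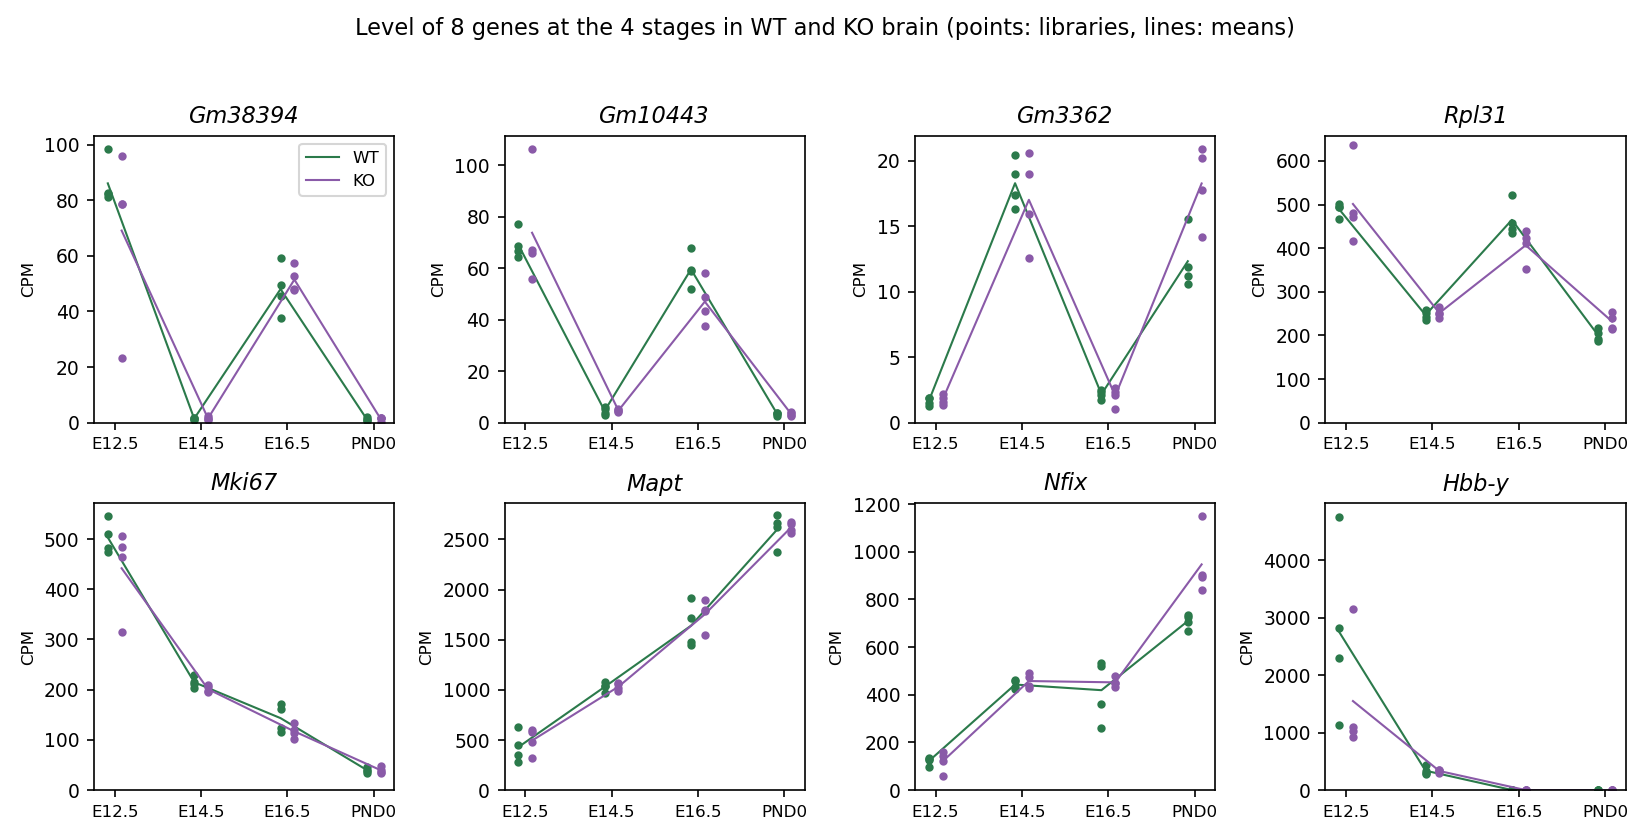
Level in CPM of 8 genes at the 4 stages, 1 point per library, WT and KO in separate colours, on the scale of all 32 libraries. Gm38394, Gm10443, Gm3362 and Rpl31 go up and down between neighbouring stages, while Mki67 and Hbb-y fall and Mapt rises over the stages.

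The same step in KO brains, which share no library with the WT step, had 4149 genes higher (24.3%) and 4258 lower (25%) of 17044. Of the 3433 genes higher in WT at 10 CPM or more, 2576 (75%) were also called higher in KO and 0 lower. Of the 4027 lower genes that were tested in KO, 3041 (75.4%) were called lower and 0 higher. The sign was the same for 98.5% of the former and 99% of the latter. The medians of the lists in KO were -0.80 for G2 and mitosis, 0.89 for synaptic vesicles, 1.12 for receptors and 0.81 for cortical neurons. For postmitotic neurons the median was 0.61 in WT and 0.39 in KO. Some lists with WT medians nearer to 0 had the other sign in KO. Among them were cytoskeleton (0.23 in WT and -0.13 in KO), cerebellum (0.26 and -0.08) and oligodendrocytes (0.26 and -0.08). Mitochondrially encoded genes (-0.02 and 0.44) and immediate early genes (-0.07 and 0.11) were others. Meninges genes had a KO median of -0.79, where 2 were higher and 8 lower. Summed levels of that list were 3166, 1017, 1088 and 3453 CPM in the 4 KO libraries of E12.5, lower in replicates 2 and 3 than in 1 and 4. With replicates 2 and 3 alone, 8 meninges genes were higher and 5 lower, with a median of 0.15.

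**Figure D5:**
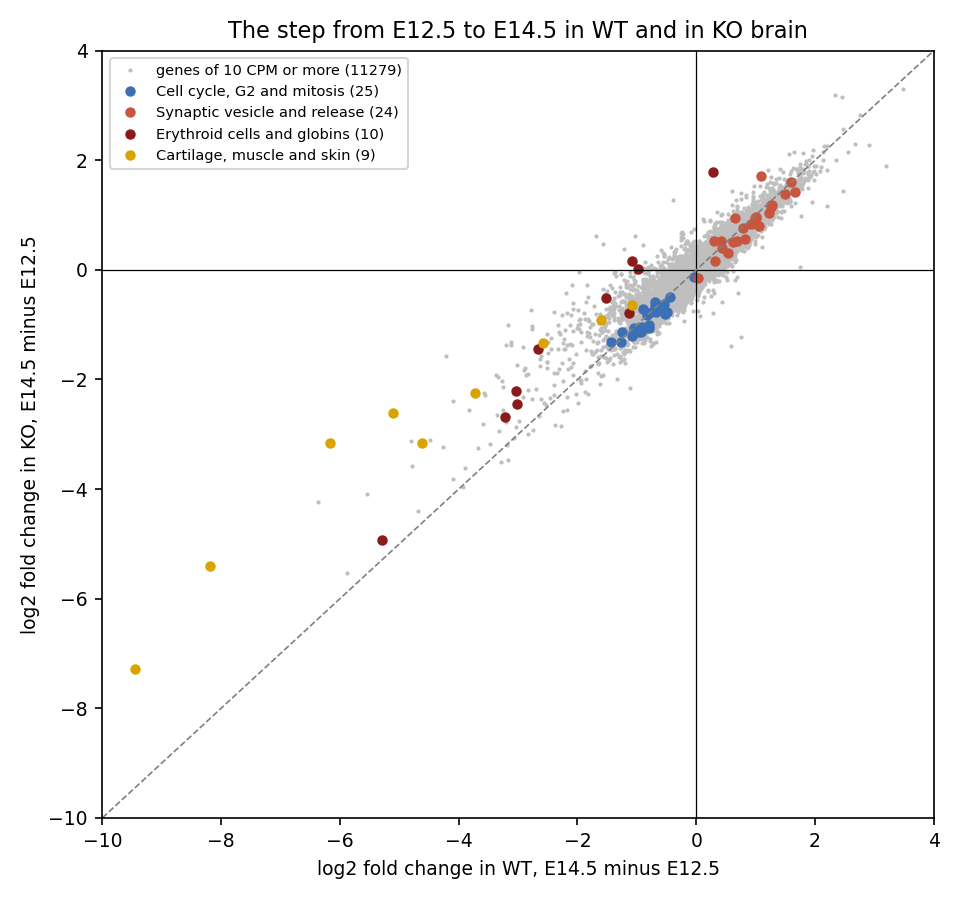
Log2 fold change from E12.5 to E14.5 in KO brains against that in WT brains, 1 point per gene for 11279 genes of 10 CPM or more, with the members of 4 lists in colour. The members of the mitosis and synaptic vesicle lists lie near the diagonal. Points of the cartilage, muscle and skin list rest on E14.5 levels near 0 and are no measure of size, and 0 genes passed the test of a difference between WT and KO.

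A test of the difference between the WT and KO steps over all 18408 genes found 0 past the threshold in edgeR, with a smallest adjusted p of 0.828 and 1001 genes at an unadjusted p under 0.05. Leaving out 1 library brought this to at most 2 genes, named here after their values were seen. Without WT E12.5 replicate 3 these were Aldh1a3 (difference 2.22, adjusted p = 0.0257) and Trim66 (1.84, adjusted p = 0.0451), and without KO E12.5 replicate 1 Dhcr7 (-0.88, adjusted p = 0.00189), the deleted gene. On the scale of all 32 libraries Dhcr7 was at 63.8 to 70.9 CPM in WT and 15.8 to 26.6 CPM in KO at E12.5, and at 68.3 to 70.2 and 11.9 to 14.6 CPM at E14.5.

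The longer step to E16.5 was set beside the step to E14.5. In KO brains, 4775 genes (27.8%) were higher and 4484 (26.1%) lower at E16.5 than at E12.5, of 17206. Of the WT genes higher at E14.5 at 10 CPM or more, 2066 (60.2%) were higher and 200 (5.83%) lower in that KO step. Of those lower, 2394 (59.4%) were lower and 134 (3.32%) higher. In WT brains the step to E16.5 uses the same E12.5 libraries, so that its values are only set beside these. The median for G2 and mitosis was -0.79 at E14.5 and -1.81 at E16.5, that for synaptic vesicles 0.95 and 1.39, for receptors 1.17 and 1.95, and for astrocytes 0.22 and 1.25. For radial glia it was -0.11 and -0.90, and for intermediate progenitors -0.35 and -1.35. Some other lists had a median of the other sign at E16.5. For Cajal-Retzius cells it was 0.27 and -0.61, for thalamus and midbrain 0.22 and -0.64, for cerebellum 0.26 and -0.87, for axon guidance 0.31 and -0.09, and for chromatin remodellers 0.32 and -0.12. For ribosomal proteins the median was -0.59 and -0.15.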

How the data were processed

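The deposited tables, 1 per stage, hold the authors' read counts per gene symbol and library, as whole numbers that were not normalized. Per the submitters' processing notes, HISAT2, SAMtools, featureCounts and DESeq2 were used with the build mm10; versions, the annotation and the strand setting are not given in the sources used here, so that reads of overlapping or antisense genes cannot be told apart. Symbols were matched to GENCODE M21 (GRCm38) for identifiers and coordinates, and promoters to RefSeq's GRCm38.p6 table.

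The 4 E14.5 and the 4 E12.5 WT libraries were fitted together in edgeR 4.0.16 (R 4.3.3) after a filter on low counts (filterByExpr, at least 10 counts, and 15 in total) and TMM scaling. The robust quasi-likelihood test was adjusted by Benjamini-Hochberg over all 17942 genes tested of 55291. A gene was called at an adjusted p under 0.05. CPM used TMM-scaled library sizes. The KO step, the steps to E16.5 and the difference between genotypes were fitted the same way. DESeq2 1.42.0 and other settings were alternatives. Tested on simulated counts for 17665 genes of this comparison, the fit recovered 80.6% of changes of 1.5-fold, 92.5% of 2-fold and 97% of 4-fold. It also called 11 unchanged genes. In that simulation 67, 67 and 66 genes were changed by these folds, far fewer than the genes called here. Its rates hold for the simulated spread, while the real libraries of E12.5 varied more than those of E14.5. How far the rates and the 11 calls carry over to the real counts was not tested. No pair of libraries held the same counts within sampling noise (chi-square per degree of freedom 2.90 to 45.1 over pairs).

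Genes were named by rule: the 15 largest rises and 15 largest falls among called genes of 10 CPM or more with separate groups, the 5 largest differences in mean CPM each way, up to 4 called genes of each list with the largest change and the uncalled one with the highest mean, and fixed sets of globins, BAF subunits and other paralogs. The 49 lists and these rules were chosen with earlier results of these data known. The list of sex genes served only as a check and a covariate. A few genes that the rules named are not reported here.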

Additional observations from a re-analysis of the deposited data

Results flagged for a closer look

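In each stage's 4 libraries, the genes named above and the summed lists were searched for 1 library far from the other 3. Of 604 groups 31 held such a library, about as many as chance gives (about 1 in 20 groups), so that a single one of them says little. At E12.5, replicate 1 stood apart in 11 groups. It was far above the other replicates for Gli1 (71.2 CPM), Gm38394 (103 CPM), Hbb-bh1 (115 CPM), Pitx1 (50.2 CPM) and Sox10 (30.7 CPM). It was also high in the summed levels of Hox genes (32.5 CPM), striatal genes (689 CPM), oligodendrocyte genes (392 CPM) and genes of retina, lens and pituitary (155 CPM). It was low for Egr3 (1.5 CPM) and Tcf7l2 (121 CPM). Replicate 3 was high for Csf1r (22.3 CPM), Hbb-bs (814 CPM), Hbb-bt (514 CPM) and Ptgds (8.64 CPM), and low for Hk2 (25.3 CPM) and Rpl31 (475 CPM). Replicate 2 was low for Lhx6 (13.7 CPM). At E14.5 the same was seen for Alx1 (0.767 CPM), Barx1 (0.226 CPM), Pecam1 (28.3 CPM) and Slc18a3 (0.812 CPM) in replicate 1. Replicate 2 stood apart for Gabrb2 (5.38 CPM), Ptbp2 (381 CPM), Smarca4 (766 CPM), Zfp503 (36.5 CPM) and the retina, lens and pituitary list (43.3 CPM). Mbnl2 (23.5 CPM) did so in replicate 3, and Eomes (129 CPM), Krt5 (0.171 CPM) and the microglial list (154 CPM) in replicate 4.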

How the results depend on the processing

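Leaving out 1 library gave 4427 to 5303 genes higher and 4970 to 5717 lower, and 3081 to 3702 and 3597 to 4100 at 10 CPM or more. Changes of 2-fold or more moved most, from 395 higher and 394 lower without E12.5 replicate 1 to 675 and 580 without replicate 3. The KO step had 3493 to 4833 higher and 3475 to 4984 lower, and the test between genotypes 0 to 2 genes (1 without KO E12.5 replicate 1). Against a fold of 1.5, 1335 genes were higher and 1404 lower, and 751 and 746 at 10 CPM or more. Over genes of 1 CPM or more, 1144 were higher and 1287 lower by 2-fold. Chosen after seeing the data, a fit against E12.5 replicate 3 alone, which assumes that this library varies like those of E14.5 although E12.5 libraries varied more, left 196 higher and 276 lower by 2-fold, and 45 of 240 called named genes lost their call.

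Replicate numbers are shared between stages, but nothing in the labels pairs the libraries. Deviations from the group means correlated at -0.231 to 0.28 between libraries with the same number, and 1 of 4 libraries of each stage correlated best with its own number. With the replicate number as a block, 4578 genes were higher and 5047 lower (3268 and 3746 at 10 CPM or more), 3747 and 3720 in KO, and 0 between genotypes.

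RLE scaling, no filter, DESeq2, all 32 libraries in 1 fit, a sex-gene covariate, offsets for GC and length, and scaling without mitochondrial genes and globins kept the counts of calls within 1.5 times. No called named gene reversed in any alternative. The genes that changed sign were not called. Against replicate 3 alone, Foxm1 was at 0.24, Hbb-bs -1.30, Hdac2 -0.087, Phf10 0.058, Ptbp2 -0.068, Tubb3 -0.027 and Trim66 0.66. Without E12.5 replicates 1 and 3, Dhcr7 was at -0.019, Hba-a1 0.033 and Msi1 -0.058, and with the offsets Dhcr7 was at -0.021 and Ptbp2 -0.16. Leaving out 1 library gave ranges of -0.11 to 0.019 for Foxm1, -0.070 to 1.87 for Hbb-bs, -0.0073 to 0.078 for Hdac2 and -0.10 to 0.0079 for Phf10. The cause of these changes was not tested.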
